A study of Mus musculus with 11 samples.

Results

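Matrix fibroblasts are the collagen-secreting interstitial cells that the study followed under the name Fibro 1. Here they were taken as barcodes in which at least 3 of the 6 matrix genes *Lum*, *Dpt*, *Col14a1*, *Fbln1*, *Mmp2* and *Clec3b* were detected. Fewer than 2 of the 5 contractile genes *Myh11*, *Pln*, *Lmod1*, *Cnn1* and *Actg2* could be detected, and the leukocyte gene *Ptprc* and the endothelial gene *Pecam1* had to be at 0. A barcode was kept if it held at least 1000 unique molecular identifiers (UMIs, tags that count captured RNA molecules), at least 200 genes and at most 30% mitochondrial UMIs. By this rule 420 of the 34828 kept barcodes in 11 libraries were matrix fibroblasts. They were 4 of 9641 kept barcodes in control kidneys, 198 of 14041 after unilateral ischemia/reperfusion (UIR) and 218 of 11146 after unilateral ureteral obstruction (UUO). The barcodes were chosen by detection of the 13 genes of the rule, so their levels are given below only as a description.

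Interstitial fibroblasts of the kidney build the collagen network between the tubules and coat its fibrils with small leucine-rich proteoglycans such as decorin. In chronic injury they multiply and secrete more matrix, which becomes the scar of kidney fibrosis. They are distinct from the contractile mural cells, which are rich in smooth muscle actin, and from pericytes, which sit on capillaries.

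One question of the study was how long-lasting injury alters the stroma of the kidney, in 2 mouse models of fibrosis. Left kidneys of male C57Bl/6 mice, 10 weeks old, were injured by clamping the renal pedicle for 30 minutes (UIR) or by permanent ligation of the ureter (UUO), and were collected at day 28. Control kidneys came from naive mice matched for age, strain and sex. There were 5 control libraries (Ctrl, N1, N2, AN1 and AN2), 3 UIR libraries (UIR, UIR1 and UIR2) and 3 UUO libraries (UUO, UUO1 and UUO2), as many as the mice that the methods of the study give for each group. The labels tie no library to a mouse or to a sequencing run, so p-values here measure the spread between libraries. The design text gives 3 batches for the controls, and with none stated for the injured libraries, batch and group cannot be told apart. The suspension came from a whole kidney without a sort for stromal cells, and a share of barcodes therefore depends on how well each cell type was released.

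The 3 UIR libraries held 82522753 to 117043590 UMIs in all droplets and the 3 UUO libraries 49503312 to 60918546. The median matrix fibroblast of an injured library held 9286 to 11035 UMIs and 3170 to 3696 genes, which was deeper than the median kept barcode of those libraries (4265 to 6213 UMIs). Of 34669 kept barcode sequences 159 occurred in more than 1 library, and no barcode sequence was a matrix fibroblast in more than 1 library.

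The cells carried the transcripts that define fibroblasts outside the rule. *Col1a1*, the main chain of type I collagen, was detected in 98.9 to 100% of matrix fibroblasts in the 6 injured libraries. In macrophages of the same libraries, which should lack it, *Col1a1* was detected in 0.923 to 8.36%. The decorin gene *Dcn* was detected in 93.5 to 98.6% of matrix fibroblasts and in 1.54 to 6.31% of macrophages. *Pdgfra*, the PDGF receptor of interstitial fibroblasts, was detected in 90.5 to 97.9% against 0.923 to 1.88%. With every barcode thinned to 1000 UMIs, *Col1a1* was still found in 77.5 to 93.7% of matrix fibroblasts and in 0 to 2.05% of macrophages. Genes that the rule did not use thus set the class apart from macrophages. This check did not compare it with other stroma.

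Many members sat at the limit of the rule. Of the 420 barcodes 209 showed exactly 3 of the 6 matrix genes, 163 showed 4, 37 showed 5 and 11 showed all 6. A further 136 barcodes showed 2 matrix genes and stayed outside, 56 of them in UIR and 80 in UUO. In barcodes with 3 genes the summed level of *Col1a1* was 2480 to 3753 CPM (the UMIs of a gene over all UMIs of the summed barcodes of a library, times 1000000). In the barcodes with 2 genes, just outside, it was 882 to 3461 CPM. In the barcodes with at least 4 genes it was 2605 to 3753 CPM in UIR and 5016 to 8795 CPM in UUO. The matrix genes were detected unequally: *Mmp2*, a gelatinase, was found in 90.1 to 100% of matrix fibroblasts of each injured library. *Lum*, the gene of the fibril-binding proteoglycan lumican, was found in 11.3 to 24.1% of the UIR and in 30.2 to 52.2% of the UUO cells. *Clec3b*, which encodes tetranectin, was found in 4.17 to 6.33% and in 15.2 to 36.5%.

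Matrix fibroblasts were almost absent from control suspensions and made up 1 to 3 of every 100 kept barcodes after injury. They were 0.0919%, 0%, 0%, 0.0529% and 0.0504% of the kept barcodes in Ctrl, N1, N2, AN1 and AN2. Taken as 3 counts, a count of 0 allows a share of up to 0.174% in N1 and 0.161% in N2. In UIR, UIR1 and UIR2 the share was 1.45%, 1.29% and 1.55%, and in UUO, UUO1 and UUO2 it was 2.44%, 1.50% and 1.97%. Every injured library lay above every control library, whereas UIR and UUO overlapped. Of barcodes with at least 500 UMIs the limits kept 1984 of 47797 (AN2) to 2176 of 15861 (Ctrl) in control. They kept 6147 of 32571 (UIR1) to 4583 of 18857 (UIR2) in UIR and 3191 of 6230 (UUO2) to 3764 of 6007 (UUO) in UUO. The denominator of the share thus rests on limits that kept unlike parts of the groups. The mean UIR share was 1.19% with a mitochondrial limit of 50% and 1.88% with 15%.

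The mean share of the 5 control libraries was 0.0390% ± 0.0393 (SD). It was 1.43% ± 0.133 for the 3 UIR libraries and 1.97% ± 0.470 for the 3 UUO libraries. The exact permutation test, two-sided by doubling the smaller tail, gave p = 0.0357 for UIR and for UUO against control. That was the smallest p that 5 against 3 libraries allow in this form. It became 0.0536 after Benjamini-Hochberg adjustment over the 3 comparisons of this share. UUO against UIR gave p = 0.20 in the same exact test. Pooled over libraries, the exact 95% intervals of the share were 0.0113 to 0.106% for control, 1.22 to 1.62% for UIR and 1.71 to 2.23% for UUO. These intervals cover counting error only.

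**Figure D1:**
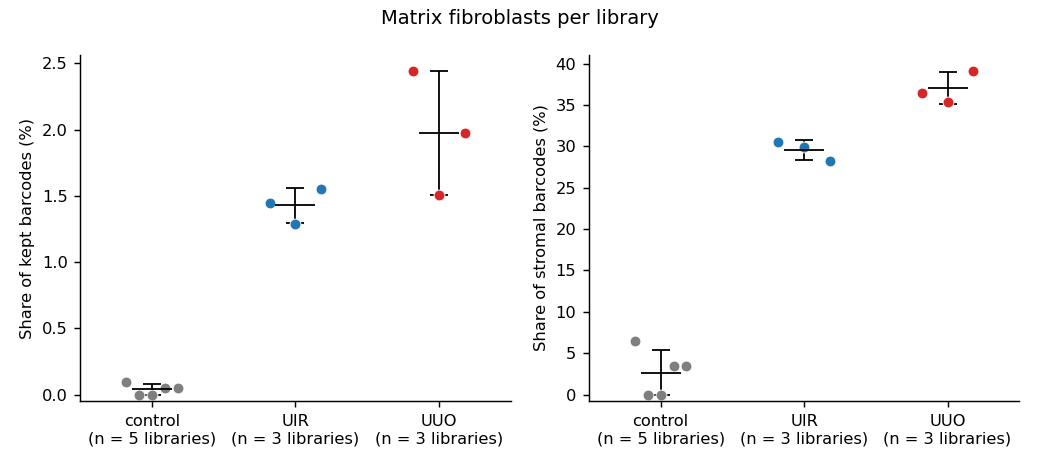
Share of matrix fibroblasts among kept barcodes (left) and among stromal barcodes (right), in percent on linear axes that start at 0. Each point is a library, and the bars give the mean and SD of each group. All 6 injured libraries (1.29 to 2.44% of kept barcodes) lie above the 5 control libraries (0 to 0.0919%).

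Within the stroma the class also took a larger place after injury. Stroma was counted as matrix fibroblasts, contractile stroma (at least 2 of the 5 contractile genes) and pericyte-like stroma (at least 3 of 8 pericyte genes, in neither other class). The 8 pericyte genes were *Pdgfrb*, *Notch3*, *Rgs5*, *Cspg4*, *Kcnj8*, *Abcc9*, *Itga8* and *Heyl*. The pericyte-like class is a marker rule and also holds barcodes with epithelial transcripts. Matrix fibroblasts were 0 to 6.45% of stromal barcodes in the control libraries, 4 of 158 in all. They were 30.6%, 29.9% and 28.2% of stromal barcodes in the UIR libraries and 36.5%, 35.4% and 39.1% in the UUO libraries, with no overlap between any of the groups. The group means were 2.67% ± 2.73, 29.6% ± 1.24 and 37.0% ± 1.92 (SD over 5, 3 and 3 libraries). UUO exceeded UIR by 7.45 percentage points with p = 0.10 in the exact permutation test, the smallest p that 3 against 3 libraries allow. That separation of UUO from UIR was lost with a mitochondrial limit of 15% (4.13 percentage points, exact permutation p = 0.30) and with at least 4 of the 6 markers (6.46 percentage points, exact permutation p = 0.20). Each model against control gave an exact permutation p = 0.0357 (0.0536 adjusted).

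A rule that asks for 3 detected genes depends on depth. With every barcode thinned to 1000 UMIs, 7, 5 and 9 barcodes of the UIR libraries and 18, 13 and 27 of the UUO libraries still met it, against 1, 0, 0, 0 and 1 in control. The thinned share of stromal barcodes was 11.3%, 5.15% and 7.26% for the UIR libraries and 18.9%, 18.1% and 34.6% for the UUO libraries, against 6.67% in Ctrl, 5.56% in AN2 and 0% in the other control libraries, which held 14 to 18 stromal barcodes each. Library UIR1 then lay below Ctrl and AN2, so UIR and control overlapped (exact permutation p = 0.107), whereas all UUO libraries stayed above control (exact permutation p = 0.0357). Of all kept barcodes, the thinned share was 0.0813 to 0.211% in UIR, 0.310 to 0.846% in UUO and at most 0.0504% in control, with no overlap. UUO against UIR then gave an exact permutation p = 0.10, the smallest that 3 against 3 libraries allow. At any depth the share also depends on the level of the rule genes in each cell. *Lum* and *Clec3b* were detected in a larger part of the UUO than of the UIR members. How far the shares of the models differ through that level or through the number of cells was not tested.

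The few control barcodes were also rich in transcripts of secreted proteins. Their 35912 UMIs were summed over libraries, because 4 barcodes allow no test against control. *Mgp*, the gene of matrix Gla protein, an inhibitor of calcification, had 2202 UMIs (61317 CPM, exact 95% interval 58782 to 63932 for counting error). *Dcn* had 505 UMIs (14062 CPM, interval 12862 to 15344), and none of them came from the AN1 barcode. *Igfbp3*, a carrier of insulin-like growth factors, had 102 UMIs (2840.3 CPM, interval 2316 to 3448).

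In the injured kidneys the most abundant transcripts described here encoded secreted proteins. *Mgp* stood at 38645, 35541 and 38578 CPM in the UIR libraries and at 24374, 23845 and 31138 CPM in the UUO libraries. The UUO libraries were all lower, but the difference did not pass the test (log2 fold change -0.53 ± 0.21, adjusted p = 0.363, edgeR's quasi-likelihood test). *Igfbp7*, a secreted binding protein of the IGF family, ranged from 7956 to 13731 CPM over the 6 libraries. *Sparc*, a collagen-binding glycoprotein, ranged from 4040 to 5467 CPM and *Bgn*, the gene of the proteoglycan biglycan, from 3482 to 4345 CPM, and for both genes the models overlapped.

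Of 1614 genes at 100 CPM or more in matrix fibroblasts, 252 stood higher in every injured library than in any injured library of both other stromal classes. These classes are cut by marker rules, so the values are side by side without a test. The 1614 genes were also taken by their level in matrix fibroblasts alone, which favours genes that are high there. Genes lower in every library were not counted, so the count of 252 is a description only. The genes named in this paragraph were chosen for a large ratio to the other stroma. *Dcn* averaged 3305 CPM in matrix fibroblasts, 172 in contractile and 170.0 in pericyte-like stroma. The Wnt antagonist gene *Sfrp1* averaged 848 CPM against 78.6 and 69.0. *Smoc2*, which encodes a calcium-binding matrix protein, averaged 767 CPM against 70.1 and 58.1, and the carboxypeptidase-like gene *Cpxm1* 612 CPM against 22.2 and 33.1. The R-spondin gene *Rspo3*, an amplifier of Wnt signalling, averaged 116 CPM against 6.23 and 5.29, and the alarmin gene *Il33* 201 CPM against 10.6 and 14.9. Among elastic fibre genes *Fbln5* averaged 502 CPM against 23.8 and 42.6.

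The smooth muscle actin gene *Acta2* showed the opposite order, with 457 CPM in matrix fibroblasts and 9443 CPM in contractile stroma. In matrix fibroblasts *Acta2* read 542, 328 and 273 CPM in UIR and 666, 526 and 406 CPM in UUO, with overlapping models. *Pdgfrb* and the intermediate filament gene *Vim*, often used as general stromal markers, overlapped between the 3 classes. *Pdgfrb* averaged 375 CPM in matrix fibroblasts, 303 in contractile and 454 in pericyte-like stroma, and *Vim* 1035, 1558 and 1267 CPM. *Pdgfrb* is a gene of the pericyte-like rule, so its level in that class is set in part by the choice of barcodes. *Pdgfra* separated the classes, with 544 CPM against 26.4 and 109.

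The models differed in what the barcodes taken by the rule expressed. *Lum* and *Clec3b*, both genes of the rule, were detected in a larger part of the UUO than of the UIR members. Genes that vary with them are thus not independent of the rule, and its part in the differences below was not tested. With UMIs summed per library, 8281 genes were tested between UUO and UIR by the quasi-likelihood method of edgeR, with p-values adjusted after Benjamini-Hochberg. At an adjusted p under 0.05, 163 genes differed (1.97% of those tested): 122 were higher in UUO (1.47%) and 41 lower (0.495%). The median log2 fold change of all genes tested was 0.00. Without a test, 737 genes (8.9%) were higher in every UUO than in every UIR library and 523 (6.32%) were lower. All fold changes below are UUO over UIR with the standard error, and library values follow the order UIR, UIR1, UIR2 and UUO, UUO1, UUO2. Counts in the gene lists below are to be read beside the shares of all genes tested, 1.47% higher and 0.495% lower. A count of 0 or 1 in a list is not a result about that list.

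**Figure D2:**
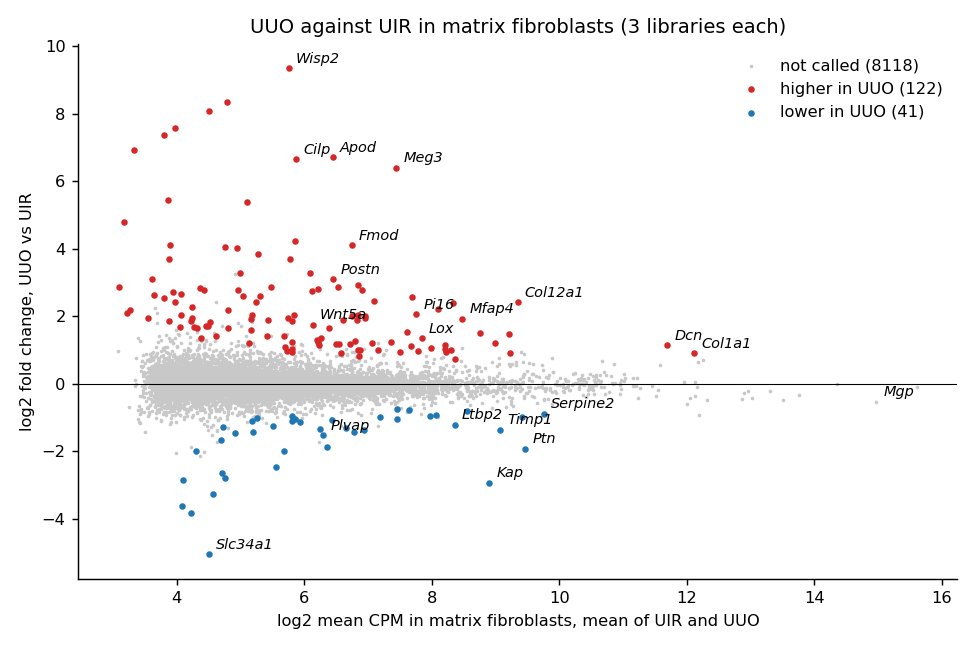
Difference between UUO and UIR in matrix fibroblasts, one point per gene tested: log2 fold change (UUO over UIR) against the mean level in log2 CPM. Coloured points passed an adjusted p of 0.05 (122 higher, 41 lower), and the labelled genes are described in the text except for *Meg3* and *Kap*.

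A minority of collagen chains, *Col1a1* and *Col12a1* among them, was higher in UUO. Of 21 collagen chains tested 4 rose, none fell and 17 did not pass, with a median log2 fold change of 0.65 over the list. Without a test, 12 of the 21 were higher and 3 were lower in every UUO than in every UIR library, where 8.9% and 6.32% of all genes were. *Col12a1*, a fibril-associated collagen of tissue under tension (chr9:79598991-79718831, minus strand), read 187, 269.6 and 146 CPM in UIR and 978, 1265 and 1056 CPM in UUO. The 3 UUO libraries stood several-fold above the UIR libraries (log2 fold change 2.42 ± 0.22, adjusted p = 0.000151, edgeR's quasi-likelihood test). *Col1a1* (chr11:94936224-94953042, plus strand) read 3447, 2581 and 3090 CPM against 4356, 5947 and 7139 CPM. Its groups did not overlap, and its change passed narrowly (0.91 ± 0.22, adjusted p = 0.0437). Its partner chain *Col1a2* (0.71 ± 0.19, adjusted p = 0.0829) and the type III chain *Col3a1* (0.66 ± 0.18, adjusted p = 0.0923) were also higher in every UUO library but did not pass.

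Of the less abundant collagen chains *Col11a1* and *Col8a2* rose. *Col11a1*, a minor chain of cartilage-type fibrils, had 3 UMIs in all UIR and 165 in all UUO members, a ratio of 47.5 with an exact 95% counting interval of 16.0 to 232. *Col8a2*, a network-forming collagen chain, read 17.5, 13.6 and 4.13 CPM against 59.5, 66.1 and 65.9 CPM (2.43 ± 0.34, adjusted p = 0.00104). The basement membrane chain *Col4a1* (-0.32 ± 0.17, adjusted p = 0.575) and the *Col8a2* partner chain *Col8a1* (-0.40, adjusted p = 0.629) did not pass.

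Enzymes that trim and crosslink collagen rose in 3 of 20 cases and fell in none, with a list median of 0.20. *Lox*, the lysyl oxidase that starts crosslinking, read 129, 113 and 141 CPM in UIR and 235, 311 and 445 CPM in UUO (1.35 ± 0.23, adjusted p = 0.00633). *Plod2*, which hydroxylates telopeptide lysines, rose from 61.8 to 66.2 CPM in the UIR libraries to 129 to 187 CPM in the UUO libraries (1.27 ± 0.20, adjusted p = 0.00321). *Adamts2*, which removes procollagen N-propeptides, changed by 1.01 ± 0.20 (adjusted p = 0.0171). Other abundant members, such as *Pcolce* (0.51 ± 0.19, adjusted p = 0.308) and *Loxl1* (0.23 ± 0.16, adjusted p = 0.721), did not pass.

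Among small leucine-rich proteoglycans and their relatives, 7 of 11 proteoglycan genes tested rose, none fell, and the list median was 1.16. *Dcn* (chr10:97479609-97518143, plus strand) read 2606, 1678 and 1794 CPM in UIR and 4074, 4422 and 5256 CPM in UUO (1.16 ± 0.21, adjusted p = 0.00849). *Fmod*, which encodes fibromodulin, a regulator of collagen fibril width, read 10.5, 17.3 and 5.51 CPM against 120.1, 206 and 283 CPM. The UUO libraries lay far above the UIR libraries (4.11 ± 0.40, adjusted p = 0.000152).

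*Aspn*, the asporin gene, read 3.50, 13.6 and 4.13 CPM against 99.9, 60.8 and 145 CPM (3.71 ± 0.45, adjusted p = 0.000423). *Ogn*, *Prelp* and *Podn*, further members of the family, rose by 1.51, 0.95 and 1.42 on the log2 scale, and the cell-surface glypican gene *Gpc3* by 2.94. *Bgn*, the most abundant of the list on average over the injured libraries, overlapped between models (0.06 ± 0.17, adjusted p = 0.96).

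**Figure D3:**
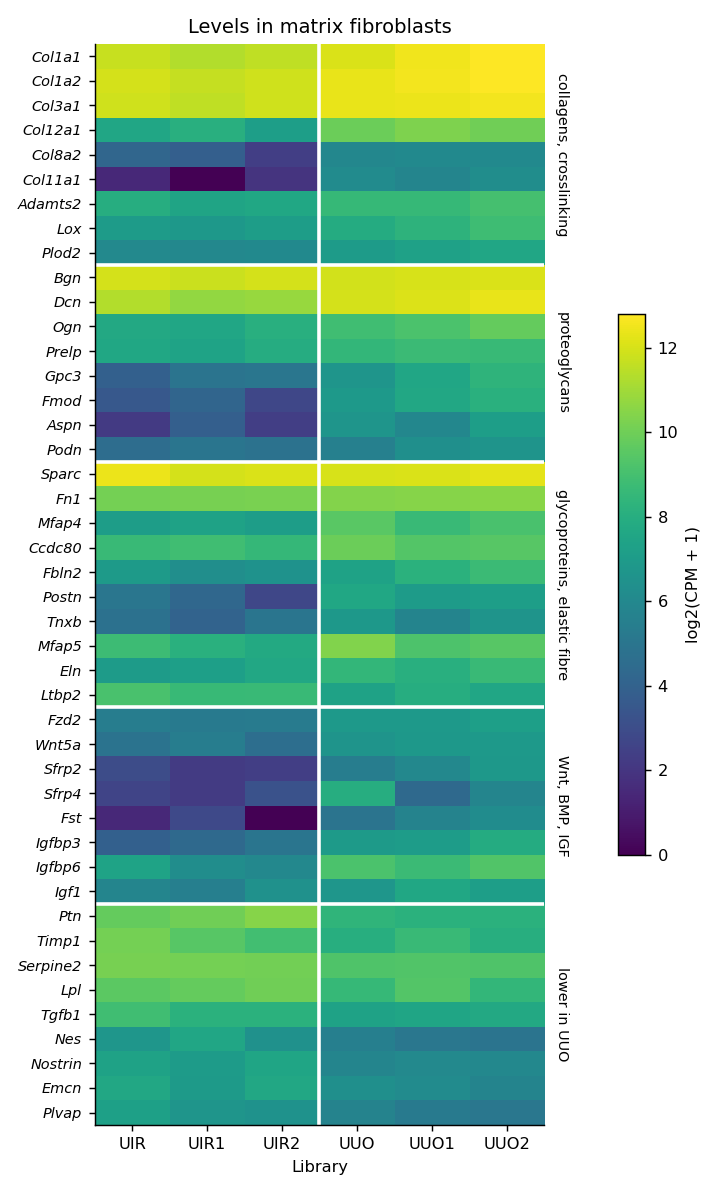
Levels of selected genes in matrix fibroblasts, as a heat map of log2(CPM + 1) with a row per gene and a column per injured library (UIR left, UUO right of the white line), grouped by role. *Bgn* and *Sparc* are alike in all 6 columns, *Col12a1*, *Fmod* and *Postn* are brighter in the 3 UUO columns, and the genes of the lowest block, such as *Ptn* and *Nostrin*, are darker there.

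Of 29 matrix glycoproteins 7 rose and none fell, and the list median was 0.39. *Postn*, the periostin gene of healing and fibrotic tissue, read 31.5, 18.6 and 5.51 CPM in UIR and 197, 131 and 143 CPM in UUO (3.11 ± 0.35, adjusted p = 0.000286). *Mfap4*, a microfibril-associated gene, read 138, 163 and 136 CPM against 739.5, 402 and 562 CPM (1.93 ± 0.22, adjusted p = 0.000309). *Fbln2*, *Lama4*, *Tnxb*, *Thbs3* and *Ccdc80* rose by 1.55, 1.96, 1.85, 1.42 and 0.90 on the log2 scale. The fibronectin gene *Fn1*, at 1133 to 1213 CPM in UIR and 1381 to 1496 CPM in UUO, was higher in each UUO library without passing (0.27 ± 0.16, adjusted p = 0.657).

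Among 12 elastic fibre genes 2 rose and 1 fell. The elastin gene *Eln* read 129, 149.7 and 207 CPM against 361, 264 and 408 CPM (1.06 ± 0.22, adjusted p = 0.0195), and the microfibril gene *Mfap5* rose by 1.47 ± 0.29 (adjusted p = 0.0167). *Ltbp2*, which encodes a fibrillin-binding protein, went the other way, from 561, 391 and 415 CPM in UIR to 167, 249 and 188 CPM in UUO (-1.21 ± 0.20, adjusted p = 0.00451). Of 5 tested cartilage and bone genes 2 rose, *Cilp* and *Chrdl1*. No other tested gene of that list had a positive change, and the list median was -0.21. The summed level of the list, which holds *Mgp*, was 43403 to 43933 CPM in UIR and 26953.5 to 32790 CPM in UUO. *Cilp*, a cartilage intermediate layer gene, had 2 UMIs in UIR and 268 in UUO (ratio 116, exact 95% counting interval 31.7 to 959.7).

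Protease and protease-inhibitor genes moved both ways, with 3 of 27 higher and 2 lower. *Serpinf1*, the gene of the antiangiogenic serpin PEDF, read 85.6, 52.0 and 42.7 CPM in UIR and 394, 247 and 421 CPM in UUO (2.56 ± 0.27, adjusted p = 0.000191). *Mmp23*, a membrane metalloproteinase gene, rose by 1.20 ± 0.19 (adjusted p = 0.00321). *Timp1*, the inducible metalloproteinase inhibitor, read 1122, 704 and 487 CPM in UIR and 260.3, 404 and 256 CPM in UUO (-1.36 ± 0.27, adjusted p = 0.016). *Serpine2*, a thrombin and plasminogen activator inhibitor gene, read 1155, 1101 and 1090 CPM against 609, 637 and 610 CPM (-0.88 ± 0.16, adjusted p = 0.00756). The paralogs *Timp2* (0.40 ± 0.16, adjusted p = 0.372) and *Timp3* (-0.10 ± 0.21, adjusted p = 0.945) did not pass.

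Secreted signals and their antagonists were part of the difference. Of 18 Wnt pathway genes 4 rose and none fell (list median 0.47). The ligand gene *Wnt5a* read 27.96, 42.1 and 23.4 CPM in UIR and 97.8, 114 and 116 CPM in UUO (1.75 ± 0.24, adjusted p = 0.000984). The receptor gene *Fzd2* read 41.9, 38.3 and 38.6 CPM against 115, 119 and 149 CPM (1.66 ± 0.21, adjusted p = 0.000506). The secreted antagonists *Sfrp2* and *Sfrp4* rose by 3.84 ± 0.48 and 4.23 ± 0.86, and *Sfrp4* was carried mostly by library UUO, at 254 CPM against 19.8 and 55.2 CPM in UUO1 and UUO2. Without that library the change of *Sfrp4* was 2.66, and it missed the threshold when any UIR library was left out.

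Of 17 genes of bone morphogenetic protein (BMP) signalling 4 rose. Of these *Chrdl1*, *Nbl1* and *Fst* encode secreted antagonists of BMP or activin ligands. *Chrdl1* had no UMI in any UIR matrix fibroblast, so UUO was at least 14.4-fold higher (against a floor of 3 counts over the UIR group). *Fst*, the follistatin gene, rose by 4.06 ± 0.59 (adjusted p = 0.00156), and *Nbl1* by 0.74 ± 0.17 (adjusted p = 0.0426). Of 10 genes of the IGF axis 3 rose: *Igfbp3* from 13.98, 19.8 and 30.3 CPM to 123, 135 and 233 CPM (2.88 ± 0.32, adjusted p = 0.00027), *Igfbp6* by 2.41 ± 0.31 and the growth factor gene *Igf1* by 1.19 ± 0.26 (adjusted p = 0.0313). *Igfbp3* in the control barcodes (2840.3 CPM) was above both models.

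The CCN family member *Wisp2* (chr2:163820861-163833146, plus strand), a modulator of Wnt signalling, was not seen in any UIR matrix fibroblast. It read 102, 63.4 and 159 CPM in the UUO libraries, at least 75.4-fold higher with 3 counts over the UIR group as the floor. The control barcodes held 3 *Wisp2* UMIs (83.5 CPM, exact 95% interval 17.2 to 244). *Rxfp1*, the relaxin receptor gene, was likewise at 0 in UIR and read 15.9, 25.1 and 125 CPM in UUO, at least 36.5-fold higher. Library UUO2 carried most of it, and the bound was 14.1-fold without that library. *Rxfp1* passed in 18 of 21 alternatives and missed the threshold when any UIR library was left out (adjusted p = 0.0554 to 0.102, edgeR's quasi-likelihood test).

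Of 23 genes of transforming growth factor beta (TGF-beta) signalling 1 rose and 1 fell, where 1.47% and 0.495% of all genes did. *Tgfb1*, the ligand itself, read 468, 291 and 284 CPM in UIR and 167, 186 and 209.9 CPM in UUO (-0.91 ± 0.21, adjusted p = 0.0426). The CCN gene *Cyr61*, a target of TGF-beta and of YAP, rose by 0.97 ± 0.23 (adjusted p = 0.0404), while its relative *Ctgf*, at 347 to 670 CPM in UIR and 776 to 1024 CPM in UUO, did not pass (0.88 ± 0.23, adjusted p = 0.0673). In the PDGF and FGF list 2 of 12 rose, the receptor-like gene *Pdgfrl* (2.01 ± 0.21, adjusted p = 0.000165) and the epithelial growth factor gene *Fgf7* (2.67 ± 0.48, adjusted p = 0.00756). *Pdgfra* (0.03 ± 0.17, adjusted p = 0.981) and *Pdgfrb* (0.06 ± 0.18, adjusted p = 0.96) had overlapping libraries.

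In UUO 4 of 12 complement genes rose. *C3*, the central component, read 52.4, 85.3 and 149 CPM in UIR and 424, 159 and 771 CPM in UUO (2.21 ± 0.46, adjusted p = 0.0211), and *C2*, *C4b* and the surface regulator *Cd55* rose by 0.92, 1.24 and 2.41 on the log2 scale. The abundant C1 inhibitor gene *Serping1* (0.08 ± 0.18, adjusted p = 0.946) overlapped between models. No gene passed among 13 chemokines and cytokines, 16 NF-kB and TNF response genes, 29 JAK-STAT and interferon genes and 12 antigen presentation genes. Of all genes tested 1.97% passed. The list medians were -0.29, -0.30, -0.10 and -0.08. The chemokine genes *Cxcl14* (-0.24 ± 0.27, adjusted p = 0.872) and *Cxcl12* (0.64 ± 0.20, adjusted p = 0.162) were the most abundant of these signals, at 563 to 1342 and 309 to 755 CPM.

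Surface and cytoskeletal genes gave a mixed picture. In the activated fibroblast list 4 of 9 tested genes rose, namely *Postn*, *Col12a1*, *Aspn* and the protease gene *Fap* (2.19 ± 0.51, adjusted p = 0.0426). *Fap*, *Thy1*, *Col1a1* and *Dcn* were the 4 of 9 tested fibroblast markers outside the rule that rose. *Thy1*, a surface antigen of fibroblasts, read 41.9, 60.6 and 17.9 CPM in UIR and 115, 201 and 148 CPM in UUO (1.89 ± 0.32, adjusted p = 0.00575). *Pi16*, a marker of adventitial fibroblasts, read 122, 61.8 and 64.8 CPM against 322, 345 and 378 CPM (2.07 ± 0.24, adjusted p = 0.000304). It was the only gene that passed of 7 tested in the universal fibroblast list. Of those 7 genes 4 had a positive change, and the list median was 0.07. Of 16 contractile genes outside the rule 1 rose, the myosin light chain gene *Myl9* (1.14 ± 0.18, adjusted p = 0.00277), and 1 fell, the desmin gene *Des* (-0.78 ± 0.19, adjusted p = 0.0473), which passed in 9 of 22 alternatives. *Acta2* did not pass (0.46 ± 0.24, adjusted p = 0.577).

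*Rgs5*, usually a pericyte gene, rose from 13.98, 19.8 and 20.7 CPM to 188, 99.1 and 105 CPM (2.80 ± 0.30, adjusted p = 0.000207). Its level in the empty droplets was 27.3 CPM in UIR and 67.0 CPM in UUO, and the other 5 tested genes of the pericyte-like list did not pass. Of 20 integrins and matrix receptors 2 fell, the glypican gene *Gpc1* (-0.95 ± 0.22, adjusted p = 0.0436, passed in 10 of 22 alternatives) and the integrin gene *Itga9* (-1.06 ± 0.22, adjusted p = 0.0187). *Itgb1*, the shared beta chain of collagen and fibronectin receptors, was at 783 to 977 CPM with overlapping models (-0.12 ± 0.16, adjusted p = 0.903).

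Positional and lineage genes passed at about the background share of 1.97%. Of 20 *Hox* genes tested 4 were higher and 2 lower in every UUO than in every UIR library, where 8.9% and 6.32% of all genes were. The 1 that rose was *Hoxa11* (1.04 ± 0.23, adjusted p = 0.0316), at 45.4, 34.6 and 28.9 CPM in UIR and 86.1, 75.3 and 64.6 CPM in UUO. None of 17 transcription factor genes and none of 4 tested proliferation genes passed, and of 15 immediate early genes 1 rose, the phosphatase gene *Dusp1* (1.22 ± 0.27, adjusted p = 0.0339). The kidney stroma genes *Meis1* (0.26 ± 0.21, adjusted p = 0.796), *Meis2* (-0.27 ± 0.18, adjusted p = 0.703) and *Hoxd11* (-0.21 ± 0.20, adjusted p = 0.846) overlapped between models. Among retinoid and lipid genes 3 of 13 rose, including the retinol carrier gene *Rbp4* (2.60 ± 0.47, adjusted p = 0.00756), and *Lpl*, the lipoprotein lipase gene, fell from 757, 861 and 1057 CPM to 383, 653 and 359 CPM (-0.97 ± 0.22, adjusted p = 0.037).

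The genes lower in UUO formed a smaller group. *Ptn* (chr6:36714929-36810220, minus strand), the heparin-binding growth factor pleiotrophin, read 862, 1025 and 1442 CPM in UIR and 326, 286 and 285 CPM in UUO. All 3 UUO libraries lay below the lowest UIR library (-1.92 ± 0.20, adjusted p = 0.000191). *Nes*, the nestin gene, read 105, 190.5 and 86.8 CPM against 44.6, 33.0 and 29.6 CPM (-1.86 ± 0.30, adjusted p = 0.00349). *Fdps* and *Idi1*, enzymes of isoprenoid and cholesterol synthesis, fell by 1.35 and 1.43 on the log2 scale. *Gm12022*, a long noncoding RNA gene, fell by 1.98 on that scale (adjusted p = 0.00111), at 63.1 to 109 CPM in UIR and 16.1 to 26.4 CPM in UUO.

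Transcripts of other cell types moved in part with the models. *Emcn* and *Plvap*, both endothelial genes, were the 2 tested members of a list of 6 and both were lower in UUO: *Emcn* read 201, 125 and 203 CPM against 82.9, 71.4 and 53.8 CPM, and *Plvap* 156, 103 and 92.3 CPM against 52.1, 37.0 and 32.3 CPM. The summed level of that list was 247 to 367 CPM in UIR and 118 to 152 CPM in UUO. Of 10 proximal tubule genes 2 were tested, *Slc34a1* and *Slc27a2*, and both were lower in UUO, with a summed level of 68.2 to 247 CPM in UIR and 7.44 to 14.5 CPM in UUO. None of the tested macrophage genes passed, and their summed level was 115 to 244 CPM in UIR and 147 to 334 CPM in UUO. The part of these other cell types in the results was not tested.

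Matrix fibroblasts with at least 2 genes of another cell type made up 66.7%, 63.3% and 45.1% in the UIR libraries and 39.1%, 47.6% and 33.3% in the UUO libraries. The share of free RNA in the summed UMIs, estimated from genes of other cell types and the empty-droplet profile, was 10.1%, 20.6% and 17.3% in UIR and 6.18%, 7.01% and 7.26% in UUO. Of the 122 genes higher in UUO 104 passed after that RNA was subtracted, and 4 could no longer be tested. Of the 41 lower genes 31 passed and 7 could not be tested. In UIR 29 of the higher and 10 of the lower genes had a level in free RNA above that in the matrix fibroblasts, among the latter *Slc34a1* and *Slc27a2*. No doublet caller was run on the 420 barcodes.

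The class was not uniform, and 1 of its parts was present almost only in UUO. The 416 members from injured kidneys were clustered without the rule genes, without the 163 genes that differed between models and without markers of other cell types. The 4 sub-clusters are named here by the gene with the highest ratio to the other sub-clusters, among genes of at least 100 CPM, and rest on a choice made after the data were seen, so no test was run on them. The *Cxcl10*-led sub-cluster held 172 barcodes (103 UIR, 69 UUO), the *Alx1*-led 112 (44 and 68), the *Cilp*-led 72 (3 and 69) and the *Olr1*-led 60 (48 and 12). The *Cilp*-led barcodes were 0%, 2.53% and 1.41% of the matrix fibroblasts in the UIR libraries and 17.4%, 28.6% and 55.6% in the UUO libraries. The *Olr1*-led barcodes were 31.2%, 21.5% and 22.5% against 7.61%, 1.59% and 6.35%. For both, the libraries of the models did not overlap. The *Cxcl10*-led share did not overlap either, at 43.75%, 45.6% and 64.8% in UIR against 34.8%, 42.9% and 15.9% in UUO. Only the *Alx1*-led share overlapped (25%, 30.4% and 11.3% against 40.2%, 27.0% and 22.2%).

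**Figure D4:**
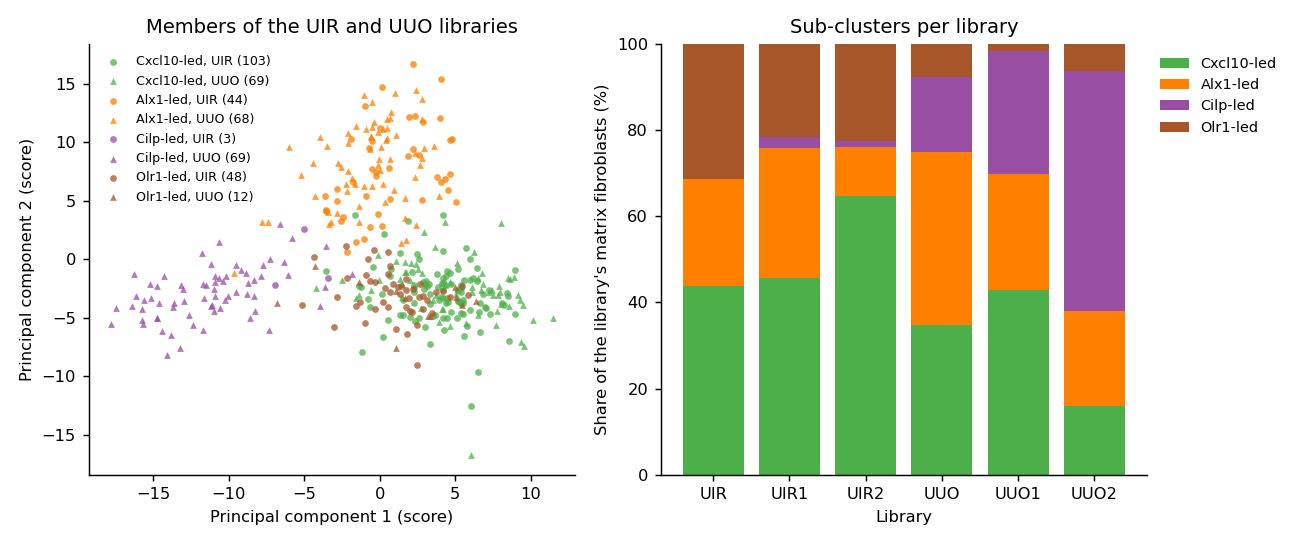
Sub-clusters of the 416 matrix fibroblasts from injured kidneys. Left, the first 2 principal component scores of each barcode (colour: sub-cluster, circle: UIR, triangle: UUO); right, the share of each sub-cluster among the matrix fibroblasts of each library, in percent, with the *Cilp*-led sub-cluster at 17.4 to 55.6% in UUO and at most 2.53% in UIR.

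The *Cilp*-led barcodes were rich in *Dcn* (9288 CPM, against 1162 to 2913 CPM in the other sub-clusters), *Col1a1* (8958 against 2794 to 4574 CPM) and *C3* (1377 against 20.6 to 144 CPM). *Pi16* stood at 1127 CPM there and at 20.6 to 179 CPM elsewhere, and the lipocalin gene *Apod* at 553 CPM against at most 1.90 CPM. The rule gene *Clec3b* stood at 745 CPM there and at most 12.5 CPM elsewhere, and was detected in 41 of the 72 barcodes. Membership rests in part on such genes, so the share of this part in each model is not independent of the rule. Single barcodes weighed on some of these values: 1 barcode gave 217 of the 391 *Apod* and 330 of the 974 *C3* UMIs of the sub-cluster. They also held the highest summed levels of mesothelial (269 CPM, against 1.25 to 109 CPM), proximal tubule (168 against 33.0 to 79.7 CPM) and macrophage genes (297 against 127 to 235 CPM), and their median depth was 7456.5 UMIs. The *Alx1*-led barcodes, named for a homeobox gene, were led by *Alx1*, *Fut9*, *Ptger1* (109 CPM, against at most 13.9 CPM elsewhere) and the ligand gene *Wnt4* (557 CPM, against at most 88.5 CPM). They were high in *Acta2* (916 against 179 to 420 CPM) and *Col12a1* (1270.5 CPM).

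The *Olr1*-led barcodes, named for a scavenger receptor gene, held the highest *Mgp* (51120 CPM), *Timp1* (1247 CPM), *Lpl* (1404 CPM) and *Ptn* (1446 CPM). Their summed endothelial genes were also highest, at 426 CPM against 70.7 to 194 CPM. The names rest on genes that not every barcode showed: *Alx1* was detected in 94 of 112 barcodes of its sub-cluster, *Cilp* in 26 of 72 and *Olr1* in 18 of 60, and *Cilp* and *Olr1* are among the 163 genes that differed between models. In the *Cxcl10*-led barcodes, named for a chemokine gene, *Cxcl10* (411 CPM, against at most 5.50 CPM elsewhere) was detected in 11 of 172, and 255 of its 650 UMIs came from 1 barcode. The interferon-induced gene *Ifit3* (252 CPM, against at most 53.6 CPM) was detected in 47 of them. The hemoglobin gene *Hbb-bs*, next in that order, had 694 of its 706 UMIs in 1 barcode. When the called genes were returned to the clustering, 58 of the 72 *Cilp*-led, 58 of the 60 *Olr1*-led, 111 of the 112 *Alx1*-led and 131 of the 172 *Cxcl10*-led barcodes stayed together. The cluster with the 58 *Olr1*-led barcodes then also held 39 *Cxcl10*-led barcodes. The cluster with the 131 *Cxcl10*-led barcodes also held 14 *Cilp*-led barcodes.

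Of the 122 genes higher in UUO 95 (77.9%) had their highest level in the *Cilp*-led barcodes, where 29.2% of all 8281 tested genes did, and 26 in the *Alx1*-led barcodes. Of the 41 lower genes 30 (73.2%) were highest in the *Olr1*-led barcodes, against 21.9% of all tested genes. These counts are a description only: 69 of the 72 *Cilp*-led barcodes came from UUO and 48 of the 60 *Olr1*-led barcodes from UIR, so genes chosen for a difference between the models tend to peak there. The *Cilp*-led barcodes were also rich in the rule gene *Clec3b*, so these counts are not independent of the rule. With the *Cilp*-led barcodes left out, a choice made after the data were seen, 84 of 7653 genes differed between models by edgeR's quasi-likelihood test, 58 of them among the 163 (*Pi16* in the opposite direction). Of the 90 higher genes that could still be tested 87 kept their direction and 39 passed, and of 38 lower genes 38 kept it and 18 passed.

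*Col12a1* (2.39), *Wnt5a* (1.77), *Fzd2* (1.51), *Lox* (1.13) and *Ptn* (-1.85) still passed without the *Cilp*-led barcodes, whereas *Dcn* (0.19), *Col1a1* (0.43) and *Igfbp6* (0.48) did not. *C3* changed sign to -0.49 and *Igf1* to -0.23 without passing, and *Pi16* became lower in UUO (-1.67, past the threshold). Over the 22 alternatives tried, *Col12a1*, *Wnt5a*, *Fzd2*, *Wisp2* and *Ptn* passed in 22, *Dcn* in 18 and *Col1a1* in 12. The alternative of at least 10 members per library repeated the main fit, because every injured library held at least 20. Each such count for a gene that passed thus holds 1 pass that was fixed in advance. *C2*, *Ccdc80*, *Dusp1*, *Hoxa11*, *Nbl1* and *Tgfb1* passed in 13 of the 22, and *C4b*, *Fap* and *Idi1* in 14. *Col1a1* did not pass without UIR, UIR1, UIR2, UUO1 or UUO2, with log2 fold changes of 0.71 to 1.01.

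**Figure D5:**
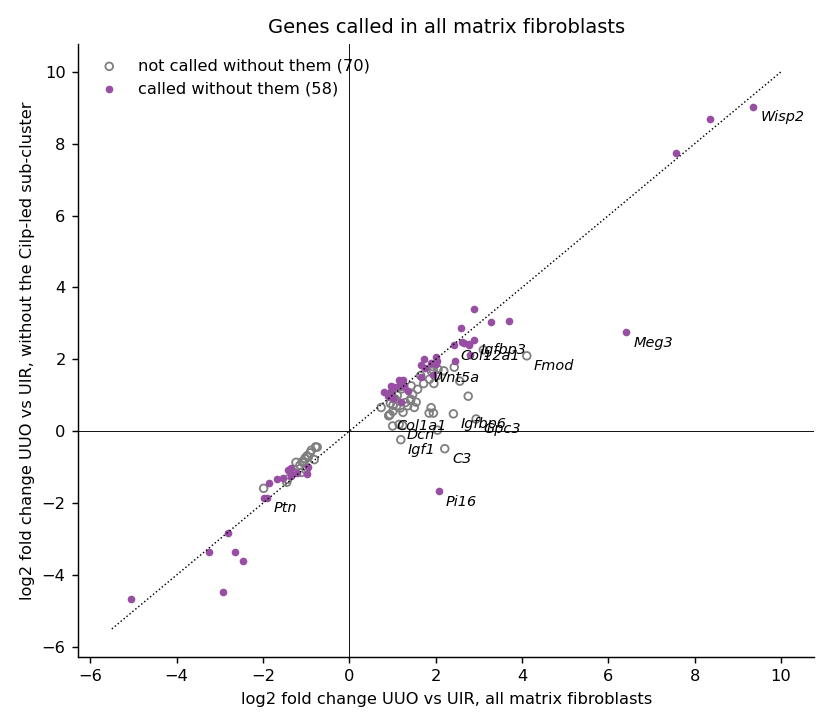
Log2 fold change (UUO over UIR) of genes that passed with all matrix fibroblasts (horizontal axis), recomputed without the *Cilp*-led barcodes (vertical axis); the dotted line marks equal values, and filled points passed without them too (58). *Col12a1* and *Ptn* stay near the line, whereas *Dcn* falls to 0.19 and *Pi16* to -1.67.

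Within the *Alx1*-led barcodes alone *Col12a1* read 491, 539 and 666 CPM in UIR and 1567, 1638 and 1777 CPM in UUO, and within the *Cxcl10*-led barcodes 97.2, 195 and 103 CPM against 439, 853 and 445 CPM. *Wisp2* was at 0 in each UIR library of both and above 0 in each UUO library of both, at 80.5 to 361 CPM in the *Alx1*-led and 3.49 to 31.2 CPM in the *Cxcl10*-led barcodes. *Col1a1* overlapped between models in both, at 3206 to 5148 CPM against 4155 to 6135 CPM in the *Alx1*-led barcodes. *Dcn* was lower in every UUO library in the *Alx1*-led barcodes, at 2285 to 2749 CPM against 2916 to 4392 CPM. *Ptn* was 1094 to 1511 CPM in UIR and 515 to 819 CPM in UUO within the *Cxcl10*-led barcodes, but overlapped between models in the *Alx1*-led (33.9 to 259.6 against 8.69 to 55.2 CPM) and the *Olr1*-led barcodes (1034 to 2106 against 313 to 1047 CPM). In the *Olr1*-led barcodes, 12 of which came from UUO, *Col12a1* (38.7 to 91.1 against 78.2 to 159.9 CPM), *Wisp2*, *Col1a1* and *Dcn* overlapped as well.

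Whether these differences were particular to matrix fibroblasts was tested against the rest of the stroma, contractile and pericyte-like barcodes summed per library. Of 10324 genes 2 (0.0194%) differed in their UUO against UIR change between the classes (edgeR's quasi-likelihood test, Benjamini-Hochberg adjusted), and 886 had an unadjusted p under 0.05. The coagulation initiator gene *F3*, tissue factor, read 40.2, 49.5 and 51.0 CPM in UIR and 168, 181 and 189.7 CPM in UUO matrix fibroblasts. In the other stroma *F3* read 110.4, 92.1 and 105.5 CPM against 94.4, 74.2 and 85.0 CPM (difference in log2 fold change 2.20 ± 0.22, adjusted p = 0.00931). Over the alternatives the adjusted p for *F3* was 5.98e-12 to 0.0606, the highest without UIR2.

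*Ramp1*, a co-receptor for the neuropeptide CGRP, read 10.5, 6.18 and 11.03 CPM in UIR and 70.1, 47.6 and 51.1 CPM in UUO matrix fibroblasts. In the other stroma it read 125, 66.6 and 104 CPM against 170.4, 71.8 and 108 CPM (2.38 ± 0.31, adjusted p = 0.047). Over the alternatives its adjusted p was 1.67e-07 to 0.217, and it passed in 1 of the 6 fits that left out a library (without UUO). The make-up of the other stroma also differed, with 311 contractile barcodes of 475 in UIR and 161 of 373 in UUO, and its part in both results was not tested. The other genes described above, *Col12a1* and *Wisp2* among them, are not shown to differ between the stromal classes in their response.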

How the data were processed

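The authors deposited raw UMI counts of 28692 genes per barcode and library (10x 3' chemistry), empty droplets included, without their ambient RNA and doublet correction. The submitters' notes and file headers give Cell Ranger 3.1.0 and mm10 (the paper's methods name a later version). Coordinates are GRCm38, GENCODE vM21. Groups came from the labels. The members, gene lists and tests were chosen with earlier results of these data known. Member counts were summed per library (at least 20 members) and tested with edgeR 4.0.16 (R 4.3.3): filterByExpr, TMM, quasi-likelihood test, Benjamini-Hochberg adjustment over all genes, threshold 0.05. The interaction had the library as a block. Shares were compared by exact permutation tests over libraries, two-sided by doubling the smaller tail, with exact (Clopper-Pearson) intervals and a floor of 3 counts for a count of 0. Free RNA was taken from barcode ranks 45000 to 90000. Sub-clusters came from 1000 variable genes, 15 components, 15 neighbours and the Leiden algorithm (leidenalg 0.10.2) at a resolution of 0.5. Alternatives changed 1 choice at a time (normalization, filter, DESeq2 1.42.0, left-out libraries, minimum of members, limits of the rule, free RNA). Scripts were tested on simulated data. Named genes were those the study names for stroma, up to 10 per direction by fold change (at least 50 CPM in the higher model, libraries not overlapping), up to 4 most abundant and all called genes per list, the 15 highest against other stroma and the called interaction genes. *Loxl1* and *Timp3*, and the genes *Cxcl10*, *Ifit3*, *Hbb-bs*, *Alx1*, *Fut9*, *Ptger1* and *Clec3b* of sub-clusters, were chosen after their values were seen. Some genes are not reported here. Library totals and median depths stand in the report.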

Additional observations from a re-analysis of the deposited data

Results flagged for a closer look

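*F3*, the tissue factor gene, stood out because its difference between the models was not the same in matrix fibroblasts and in the other stroma: the interaction term was 2.20 ± 0.22 on the log2 scale (adjusted p = 0.00931, edgeR's quasi-likelihood test). In matrix fibroblasts its mean was 46.9 ± 5.84 CPM (SD, n = 3) in UIR and 179.6 ± 11.01 CPM (SD, n = 3) in UUO, and in the other stroma 102.7 ± 9.46 and 84.5 ± 10.1 CPM. Without the *Cilp*-led barcodes the UUO against UIR change of *F3* within matrix fibroblasts was 0.66 and did not pass, the only one of 22 alternatives in which it did not pass.

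*Ramp1*, the CGRP co-receptor gene, stood out by the same test but less firmly, with an interaction of 2.38 ± 0.31 (adjusted p = 0.047, edgeR's quasi-likelihood test). That interaction passed in 8 of 18 alternatives, against 17 of 18 for *F3*. The mean of *Ramp1* in matrix fibroblasts was 9.23 ± 2.65 CPM in UIR and 56.3 ± 12.1 CPM in UUO, and in the other stroma 98.5 ± 29.6 and 116.6 ± 49.9 CPM. In the empty droplets *Ramp1* was at 11.8 CPM in UIR and 36.5 CPM in UUO. With free RNA subtracted, its UUO against UIR change within matrix fibroblasts was 2.90 (adjusted p = 0.000524) and still passed, and the interaction was not refitted that way.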

How the results depend on the processing

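The 6 comparisons of shares kept their direction under every alternative run. With the smaller tail doubled, an adjusted p under 0.05 was out of reach for them (the smallest possible was 0.0536). The unadjusted exact permutation p of 0.0357 for each model against control rose to 0.0571 without a control library, 0.0952 without an injured library and 0.133 without the unnumbered libraries. Each was the smallest that those numbers of libraries allow in that form. With barcodes thinned to 1000 UMIs it rose to 0.107 for UIR against control as a share of stroma, where the groups then overlapped. The excess of UUO over UIR among kept barcodes (0.546 percentage points) was 0.201 with a mitochondrial limit of 15%, 0.311 without library UUO, 0.322 without the unnumbered libraries and 0.899 with at least 2 markers. Among stromal barcodes (7.45) it was 4.13 with that mitochondrial limit, 11.2 with at least 2 markers, 13.2 without barcodes holding markers of other cell types and 15.97 when thinned. The excess of UIR and UUO over control among kept barcodes (1.389 and 1.935 points) was 0.144 and 0.5256 when thinned and 0.638 and 1.051 with at least 4 markers. It was 0.592 and 1.187 without barcodes holding markers of other cell types. Among stromal barcodes (26.9 and 34.3 points) it was 13.2 and 19.7 with at least 4 markers and 5.46 and 21.4 when thinned. The 163 genes between UUO and UIR became 88 to 177 when 1 library was left out, with 101 without UIR1, 88 without UIR2 and 98 without UUO2. They became 483 (of 16299) without the filter beyond 1 count, 101 without barcodes holding markers of other cell types, where library UIR fell below 20 members, and 84 without the *Cilp*-led barcodes (chosen after the data were seen), and *C3* (-0.49), *Igf1* (-0.23) and *Pi16* (-1.67) turned negative there. Of 81 results for single named genes that passed, both interaction results among them, 52 to 70 still passed with 1 library left out, and 0 changed sign. The 2 interaction genes became 0 to 13 when 1 library was left out: 0 without UIR2 (653 at an unadjusted p under 0.05), 13 without library UIR, 9 without UIR1 and 12 without library UUO. The interaction count was 45 without both unnumbered libraries, 286 without the filter, 83 with at least 4 of the 6 markers and 28 without barcodes holding markers of other cell types. It was 1 with DESeq2 size factors, with at least 10 CPM, with mitochondrial limits of 15% and 50% and with at least 2000 UMIs. With the replicate number as a block 240 genes (162 of the 163 among them) and 48 interaction genes passed. The numbers are only shared names, and libraries UIR and UUO, which the labels leave unnumbered, were paired as the third number for the block. Correlations were 0.219 for UIR with UUO, 0.114 for UIR1 with UUO1 and 0.0402 for UIR2 with UUO2 over 8287 genes, and UUO1 correlated better with UIR2 (0.1185). Depth limits genes of few UMIs: the UIR floor of 3 counts was 1.42 CPM, and that of the 4 control barcodes 83.5 CPM.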
